A study of Homo sapiens with 11 samples.

Results

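MI-503 together with PR-957 was compared with MI-503 alone in MOLM-13, an established human acute myeloid leukemia cell line that carries a KMT2A (MLL) fusion gene. RNA was sequenced after 72 h in cells given 1 µM MI-503 and 100 nM PR-957 (3 libraries, replicates 1, 2 and 4) and in cells given 1 µM MI-503 (4 libraries), so that PR-957 was the only agent that differed between the groups. These 7 of the 11 libraries of the series were chosen by their treatment labels. The 4 DMSO libraries, also taken at 72 h, entered the same fit and are given as background only. No library held PR-957 without MI-503, so an effect of PR-957 by itself and an effect that needs MI-503 cannot be told apart. The labels do not say whether the libraries came from separate cultures, and every p-value therefore measures the spread between these libraries, which may be technical.

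MI-503 blocks the contact between Menin and the KMT2A complex, the chromatin regulator that keeps HOXA genes and MEIS1 transcribed in leukemias with a KMT2A fusion. PR-957 blocks PSMB8 (LMP7), a protease subunit that blood cells build into the immunoproteasome in place of its counterpart in the standard proteasome. In the standard proteasome a 20S core of alpha and beta subunits cuts ubiquitin-tagged proteins, and a 19S cap recognizes and unfolds them. Cells whose proteasomes are blocked are known to release the transcription factor NFE2L1 (NRF1), which raises the genes of the core and the cap together.

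The total count per library ranged from 21489431 to 34617807 with MI-503 and from 18891243 to 41153974 in the combination. Combination replicate 1, the deepest library, stood apart. In a chi-square comparison of counts over genes, the statistic divided by its degrees of freedom was 19.7 and 34.1 between replicate 1 and replicates 2 and 4, against 4.498 between replicates 2 and 4 and 1.71 to 4.55 among the MI-503 libraries. Among 10111 genes whose combination mean reached 5 CPM (counts scaled to a common library size), 43 genes in replicate 1 lay over 2-fold from the mean log2 CPM of the other two libraries, against 10 for replicate 2 and 13 for replicate 4. Results are given with all 3 combination libraries, and without replicate 1 for the counts of list members that changed and for the genes whose call changed.

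Of 14683 tested genes, 6956 (47.4%) differed at an adjusted p under 0.05 (edgeR quasi-likelihood test). The call was higher for 3467 (23.6%) and lower for 3489 (23.8%), which is the background for every count of list members below. The changes were mostly small, and 451 genes (3.07%) rose and 206 (1.4%) fell by at least 2-fold. The median log2 fold change over all tested genes was 0.00. In CPM, 3496 genes (23.8%) lay above and 3486 (23.7%) below in the combination without overlap between the groups. Without combination replicate 1, 7268 of 14751 tested genes (49.3%) were called, 3209 (21.8%) higher and 4059 (27.5%) lower, with a median of −0.03. Of these, 495 (3.36%) rose and 350 (2.37%) fell by at least 2-fold. Calls of the same direction were made in both fits for 6185 genes, and 0 genes were called in opposite directions (edgeR).

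**Figure D1:**
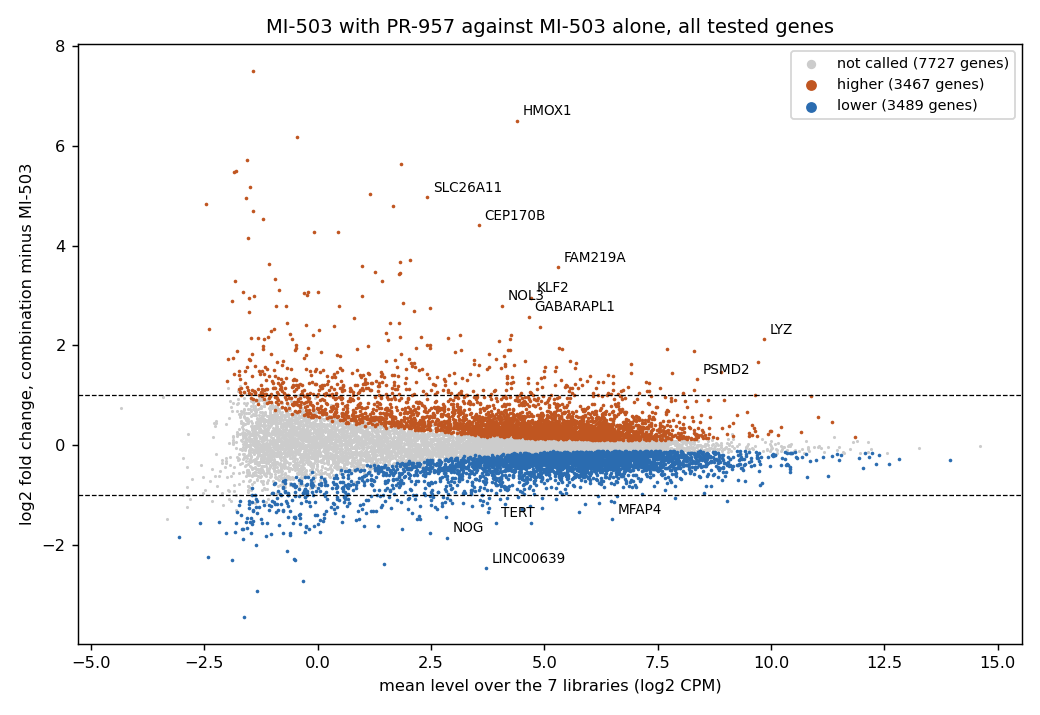
Log2 fold change of the combination against MI-503 (vertical axis) by mean level over the 7 libraries in log2 CPM (horizontal axis), 1 point per tested gene, with 3467 genes called higher in orange and 3489 called lower in blue. The dashed lines mark 2-fold, and the named genes are HMOX1, LYZ, LINC00639 and others described in the text.

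The genes of the standard proteasome rose as a block. All 13 tested subunits of the 20S core and all 18 tested subunits of the 19S cap were called higher, against 23.6% of all tested genes. Each of these 31 subunits had every combination library above every MI-503 library, against 23.8% of all tested genes. The median log2 fold change was 0.67 for the core and 1.02 for the cap. Without combination replicate 1 all 31 remained called higher, with medians of 0.66 and 0.93. The core subunit PSMB3 and the cap subunit PSMC4 were not tested because they held 0 and 3 counts over all 11 libraries, and both are also annotated on a second contig of the assembly.

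Among cap subunits PSMD11, a scaffold subunit of the lid, stood at 64.7, 66.6, 69.3 and 74.0 CPM in the MI-503 libraries and at 208, 167 and 190 CPM in the combination. Its log2 fold change was 1.46 ± 0.067 (SE; adjusted p = 4.79e-11, edgeR). The lowest combination library lay far above the highest MI-503 library, and the DMSO mean of 91.4 CPM lay between the groups. PSMD2, a large subunit of the base, stood at 187, 199, 207 and 210 CPM with MI-503 and at 532, 453 and 522 CPM in the combination (log2 fold change 1.32 ± 0.059, adjusted p = 4.00e-11, edgeR). ADRM1, the ubiquitin receptor of the cap, rose from a mean of 93.8 CPM to between 211 and 242 CPM, a log2 fold change of 1.27. The smallest rise among cap subunits was that of SEM1 (0.34).

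In the core, PSMB4, a beta subunit without protease activity, stood at 203, 210, 225 and 209 CPM with MI-503 and at 466, 415 and 480 CPM in the combination (log2 fold change 1.10 ± 0.051, adjusted p = 4.87e-11, edgeR). The catalytic subunits PSMB5, PSMB6 and PSMB7, which the immunoproteasome subunits replace, rose by unequal amounts. Their log2 fold changes were 0.52 ± 0.052 for PSMB5, 0.98 ± 0.083 for PSMB6 and 1.09 ± 0.059 for PSMB7. PSMB5, the counterpart of the PR-957 target PSMB8, went from 47.0, 50.1, 47.6 and 46.9 CPM to 66.5, 68.7 and 71.1 CPM. The groups did not overlap, and the DMSO mean of 63.2 CPM was close below the combination. Of the alpha subunits, which form the gate of the core, PSMA1 rose most (0.98) and PSMA3 least (0.32).

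The immunoproteasome subunits did not follow. PSMB8 stood at 18.6, 16.5, 18.9 and 18.1 CPM with MI-503 and at 10.6, 11.5 and 12.3 CPM in the combination, without overlap. Its log2 fold change was −0.66 ± 0.081 (adjusted p = 5.27e-06, edgeR), and it was −0.61 without combination replicate 1. PSMB8 is annotated on 8 contigs of the assembly, so that part of its fragments may be absent from the counts in every library. PSMB10, the immunoproteasome counterpart of PSMB7, stood at 103, 104, 110 and 102 CPM against 82.9, 105 and 111 CPM, and the difference of −0.08 did not pass the test (adjusted p = 0.388, edgeR), though PSMB10 was called lower when combination replicate 4 was left out. The third catalytic subunit, PSMB9, held 10 counts over all libraries, and the activator subunit PSME1 held 0, so neither was tested. They are annotated on 8 and 2 contigs, and such counts do not show that these genes were silent. PSME2, the partner of PSME1, was tested at a mean of about 1 CPM (log2 fold change 0.21, adjusted p = 0.514, edgeR).

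**Figure D2:**
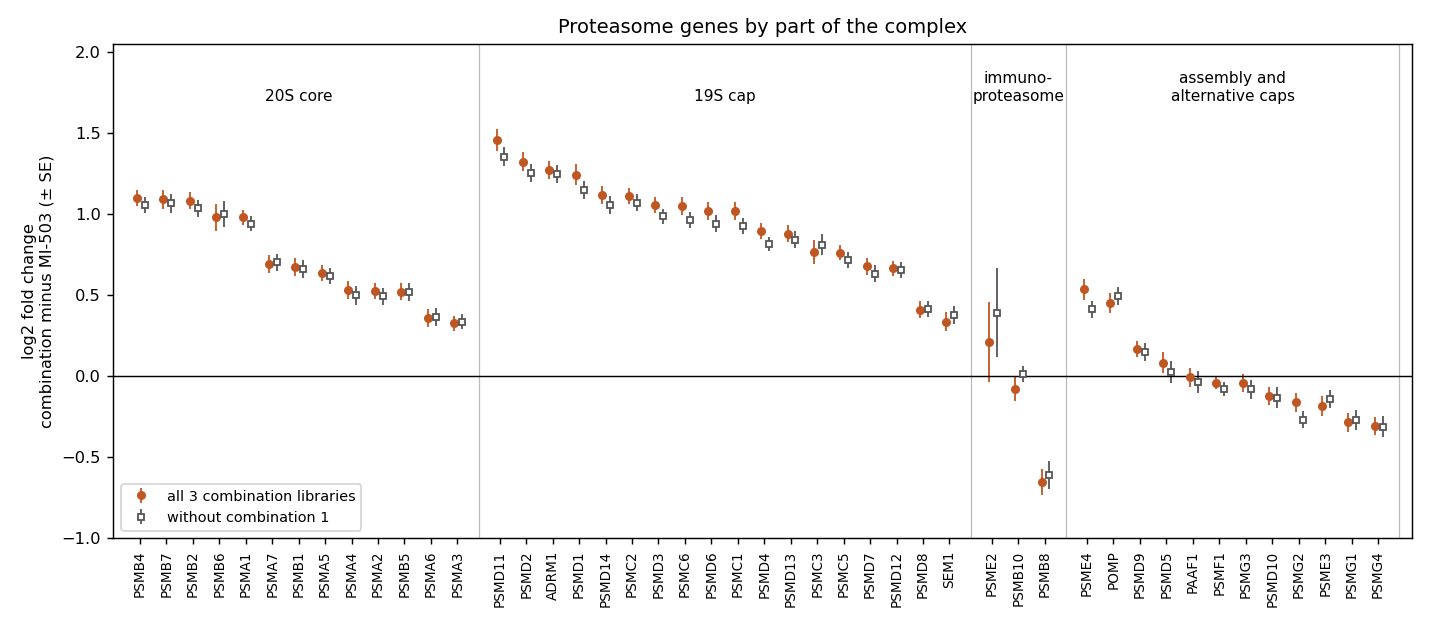
Log2 fold change of the combination against MI-503 with its SE (vertical axis) for each tested proteasome gene, grouped by part of the complex, with all 3 combination libraries (orange circles) and without replicate 1 (open squares). All subunits of the core and the cap lie above 0, between 0.32 and 1.46, while PSMB8 lies at −0.66 and the assembly genes lie on both sides of 0.

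Among 12 genes for assembly chaperones and alternative caps, 3 were called higher and 4 lower, and their median of −0.04 was close to that of all genes. POMP, which helps new core particles mature, rose from 100, 103, 111 and 105 CPM to 130, 137 and 163 CPM (log2 fold change 0.45 ± 0.064, adjusted p = 2.22e-05, edgeR). PSME4, an alternative cap also known as PA200, rose by 0.54. The assembly chaperones PSMG1 and PSMG4 fell by 0.29 and 0.31 on the log2 scale. Of 9 genes that control proteasome transcription, 7 were called higher and 0 lower, and 6 were higher without combination replicate 1. NFE2L1 itself rose by 0.29 ± 0.042 (adjusted p = 2.33e-05, edgeR), and its partners MAFF and MAFG rose by 0.81 and 0.57. The difference in DDI2, the protease that releases NFE2L1 from the ER membrane, was −0.02 and did not pass the test. NGLY1, the enzyme that removes sugar chains from NFE2L1, lost its call without combination replicate 1 (0.15 with it, 0.09 without, adjusted p = 0.147, edgeR).

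The promoters of the proteasome, antioxidant and metallothionein lists were searched for the core of the antioxidant response element, the site at which NFE2L1 and NFE2L2 bind with small MAF proteins. Each promoter ran from 250 bases before to 50 after the first start that the table lists for the gene (RefSeq, GRCh38.p14), and the letters TGACNNNGC were searched on both strands. Among tested genes with a promoter in the table, a match was present in 4 of 17 cap promoters (23.5%), 0 of 9 core promoters and 5 of 14 promoters of NRF2 antioxidant genes (35.7%), against 15.5% of the 10694 promoters of tested genes and 13.6% of all 27305. The untested PSMC4 and PSMB3 also held a match. All 3 promoters found for the tested metallothionein and zinc export genes held a match too, those of MT1X and MT2A, which fell, and that of SLC30A1, which rose. A pair from each group is shown, ADRM1 and PSMD3 from the cap and GCLM and ME1 from the antioxidant genes, because all 4 genes rose over 2-fold and hold a match. Capitals mark the matches, and the sequences run 5′ to 3′ along each gene's own strand.
ADRM1: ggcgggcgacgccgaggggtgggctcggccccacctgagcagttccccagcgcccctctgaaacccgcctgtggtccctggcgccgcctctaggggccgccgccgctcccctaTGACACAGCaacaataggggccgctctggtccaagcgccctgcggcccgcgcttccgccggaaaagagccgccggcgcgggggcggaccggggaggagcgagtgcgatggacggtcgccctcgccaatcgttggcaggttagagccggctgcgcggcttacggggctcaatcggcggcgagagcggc
PSMD3: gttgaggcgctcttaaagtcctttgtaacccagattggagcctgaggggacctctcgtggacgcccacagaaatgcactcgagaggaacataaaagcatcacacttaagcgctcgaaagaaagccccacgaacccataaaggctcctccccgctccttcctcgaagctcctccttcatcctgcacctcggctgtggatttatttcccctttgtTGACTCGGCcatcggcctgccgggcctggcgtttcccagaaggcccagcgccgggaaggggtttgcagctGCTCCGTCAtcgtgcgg
GCLM: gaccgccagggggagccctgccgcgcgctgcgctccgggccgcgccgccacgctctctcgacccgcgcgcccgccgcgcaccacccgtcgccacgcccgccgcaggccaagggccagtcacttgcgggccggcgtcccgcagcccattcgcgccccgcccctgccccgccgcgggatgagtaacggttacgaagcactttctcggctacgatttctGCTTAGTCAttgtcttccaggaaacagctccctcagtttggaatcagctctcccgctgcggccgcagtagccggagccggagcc
ME1: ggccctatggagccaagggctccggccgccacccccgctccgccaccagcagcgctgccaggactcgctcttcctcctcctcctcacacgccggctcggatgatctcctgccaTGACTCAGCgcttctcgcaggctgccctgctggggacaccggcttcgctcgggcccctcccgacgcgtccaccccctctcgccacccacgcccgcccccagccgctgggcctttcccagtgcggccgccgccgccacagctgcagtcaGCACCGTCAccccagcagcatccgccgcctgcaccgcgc
The windows were chr20:62302646-62302945 for ADRM1 and chr17:39980557-39980856 for PSMD3, both on the plus strand, and chr1:93909381-93909680 for GCLM and chr6:83431002-83431301 for ME1, both on the minus strand. The first match began 137 bases before this start for ADRM1, 37 bases for PSMD3, 34 bases for GCLM and 137 bases for ME1. Other starts exist, and the annotation that was counted begins ADRM1 at 62302061 and GCLM at 93910370, outside these windows. PSMD3 and ME1 each held 2 matches. Other motifs were searched as well. The CAAT box was found in 5 of 9 tested core promoters (55.6%) and 9 of 17 cap promoters (52.9%), against 36.5% of promoters of tested genes. A GC-rich motif, TGCGCNC, was found in 22.2% of the core and 29.4% of the cap promoters, against 29.9% of promoters of tested genes. In the metallothionein and zinc export list this motif was in 2 of 3 tested promoters (66.7%), those of MT1X and MT2A. The SLC30A1 promoter held no match to it. The heat shock element was in 0 core, 0 cap and 4 of 17 cytosolic chaperone promoters (23.5%), against 0.309%. None of these shares was tested. A match is a description of the letters and not a bound site.

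The genes that deliver proteins to the proteasome rose in part. Of 18 genes for ubiquitin, the VCP segregase and shuttle proteins, 12 were called higher and 3 lower (median log2 fold change 0.28), and without combination replicate 1 11 were higher and 4 lower (median 0.19). VCP, the ATPase that pulls ubiquitinated proteins out of complexes and membranes, rose by 0.92, from between 270 and 292 CPM to between 488 and 555 CPM. Its adaptors moved further. NPLOC4 went from 123, 123, 135 and 137 CPM to 327, 363 and 371 CPM (log2 fold change 1.45 ± 0.057), without overlap. UFD1 went from 30.6, 31.0, 36.0 and 36.9 CPM to 78.1, 81.8 and 92.4 CPM (log2 fold change 1.32 ± 0.076). ZFAND5, which activates the proteasome, and ZFAND2A, a stress-induced partner of the cap, rose by 0.94 and 0.95. The 3 members called lower were UBQLN4, UCHL5 and STUB1, at −0.25, −0.25 and −0.19, and the adjusted p of STUB1 reached 0.0583 over the alternative fits. RAD23B, a shuttle protein, was called higher at 0.14 with all libraries and lost its call without combination replicate 1 (0.07, adjusted p = 0.239, edgeR).

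The NRF2 antioxidant genes rose almost as a whole. Of 20 tested members, 19 were called higher and 0 lower, with a median log2 fold change of 0.69 and of 0.69 without combination replicate 1, when 18 were called. HMOX1, the heme oxygenase that opens the heme ring and frees its iron, rose most. It stood at 0.417, 0.407, 0.826 and 0.450 CPM with MI-503 and at 7.98, 89.3 and 47.4 CPM in the combination. Each combination library was far above every MI-503 library, and replicate 1 was far below the other two. The log2 fold change was 6.50 ± 0.69 (adjusted p = 1.03e-06, edgeR), and over the alternative fits the adjusted p reached 0.0167.

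Within the antioxidant list the spread in combination replicate 1 differed between members. GCLM, the regulatory subunit of the enzyme that starts glutathione synthesis, stood at 71.2, 66.6 and 75.2 CPM against a mean of 31.9 CPM with MI-503 (log2 fold change 1.16 ± 0.066, adjusted p = 5.74e-10, edgeR). ME1, which makes NADPH from malate, stood at 33.4, 23.98 and 27.8 CPM against 5.18, 6.34, 7.64 and 7.66 CPM (log2 fold change 2.09 ± 0.14). In both, replicate 1 lay with or above the other two libraries. SLC7A11, the cystine transporter, stood at 43.6, 99.1 and 104 CPM against 25.4 to 30.8 CPM, and FTL, the light chain of the iron store ferritin, at 2063, 2822 and 3025 CPM against 1303 to 1404 CPM. In these replicate 1 was the lowest of the combination, though still above every MI-503 library. Their log2 fold changes were 1.55 and 0.98 with all libraries and 1.85 and 1.10 without replicate 1. The heme transporter SLC48A1 rose by 1.16, and PIR, a gene long known as a target of NRF2, rose by 2.45 from a mean of 1.19 CPM, although 52.0% of its annotated exon bases are shared with another gene. TXN, thioredoxin, was the member without a call (−0.02). TKT, a pentose phosphate enzyme, was called at 0.19 and was not called without replicate 1 (0.06, adjusted p = 0.195, edgeR).

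Cytosolic chaperones moved less as a group. Of 19 tested members 9 were called higher and 3 lower, with a median log2 fold change of 0.20, and 10 were higher and 4 lower without combination replicate 1. HSPA1A, the inducible HSP70, stood at 7.27, 10.2 and 7.59 CPM against 3.38, 3.52, 2.81 and 2.46 CPM (log2 fold change 1.43 ± 0.16, adjusted p = 1.98e-06, edgeR). Its near-identical copy HSPA1B and further contigs of the assembly share its sequence, so its level is uncertain in every library. BAG3, a partner of HSP70 in the clearance of aggregates, rose from 28.8, 29.6, 28.4 and 28.6 CPM to 55.2, 47.4 and 48.6 CPM (0.81 ± 0.059), and HSPH1, an HSP70 exchange factor, rose by 0.61. FKBP4, an HSP90 partner of steroid receptors, fell by 0.41 on the log2 scale, and the mitochondrial chaperones HSPD1 and HSPE1 fell by 0.19 and 0.21. The adjusted p of these mitochondrial chaperones reached 0.0759 and 0.0568 over the alternative fits, and HSPD1 overlapped between the groups.

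The ER and amino acid stress programs split. Of 17 ER chaperone and unfolded protein genes 6 were called higher and 3 lower (median −0.04). XBP1, the transcription factor at the center of the secretory program, stood at 233, 241, 271 and 266 CPM with MI-503 and at 144, 159 and 149 CPM in the combination (log2 fold change −0.75 ± 0.056, adjusted p = 1.97e-08, edgeR). The groups did not overlap, and the DMSO mean was 463 CPM. DNAJC3, an inhibitor of the kinase PERK, and CRELD2, a secreted ER stress protein, rose by 0.37 and 0.40, and the disulfide isomerase PDIA6 fell by 0.36.

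Of 18 tested ATF4 response genes 6 were called higher and 8 lower (median −0.15), and without combination replicate 1 5 were higher and 9 lower (median −0.27). Those that rose included DDIT3 (CHOP), a death-linked transcription factor, from 11.2, 11.1, 13.2 and 12.9 CPM to 24.1, 33.0 and 29.4 CPM (log2 fold change 1.24 ± 0.097, adjusted p = 3.18e-08, edgeR). PPP1R15A, which restores translation after stress, rose by 1.17, from 19.4 to 20.8 CPM up to between 41.8 and 49.2 CPM. Those that fell included enzymes of serine and one-carbon metabolism. PHGDH, the first enzyme of serine synthesis, went from 192, 204, 219 and 222 CPM to 124, 118 and 117 CPM (log2 fold change −0.80 ± 0.059, adjusted p = 1.34e-08, edgeR), and ALDH1L2, a mitochondrial folate enzyme, fell by 0.76. For ATF4 itself the difference was −0.08 and did not pass the test, while it was called lower without combination replicate 1 (−0.22). DDIT4, an inhibitor of mTORC1, was called higher at 0.42 with all libraries, but its levels of 397, 300 and 234 CPM overlapped the MI-503 range of 227 to 236 CPM and its call was lost without replicate 1 (0.18, adjusted p = 0.0817, edgeR).

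Autophagy and lysosome genes rose widely. Of 20 tested members 18 were called higher and 0 lower, with a median log2 fold change of 0.56 and of 0.57 without combination replicate 1. GABARAPL1, an ATG8 protein that coats autophagosomes, stood at 7.92, 8.22, 8.13 and 7.94 CPM with MI-503 and at 46.7, 47.9 and 49.7 CPM in the combination. The log2 fold change was 2.57 ± 0.066 (adjusted p = 5.57e-14, edgeR), and the 3 combination libraries lay close together. The kinase ULK1, which starts autophagosome formation, and TFE3, a transcription factor of lysosomal genes, rose by 0.67 and 0.56. CTSD, the lysosomal protease cathepsin D, went from 144, 145, 151 and 144 CPM to 378, 628 and 626 CPM (1.90 ± 0.12), again with replicate 1 the lowest of the combination. The autophagy receptor SQSTM1 was not tested, because it held 63 counts over all libraries and is also annotated on a second contig.

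Monocyte and macrophage markers rose in part, and granulocyte markers were called in both directions. Of 10 tested monocyte and macrophage markers 6 were called higher and 1 lower (median 0.39), and without combination replicate 1 7 of 12 tested were higher and 1 lower (median 0.46). LYZ, lysozyme, stood at 373, 381, 371 and 378 CPM with MI-503 and at 599, 1812 and 2513 CPM in the combination (log2 fold change 2.13 ± 0.27, adjusted p = 8.11e-06, edgeR). The groups did not overlap, replicate 1 was far below the other two, and the DMSO mean was 95.2 CPM. CD68, a lysosomal membrane protein of macrophages, went from between 88.7 and 97.9 CPM to 107, 216 and 254 CPM (1.04 ± 0.18). ITGAX (CD11c), an integrin chain, rose by 1.35, from 18.8, 19.9, 17.4 and 16.7 CPM to 38.0, 54.5 and 47.5 CPM. CSF1R, the M-CSF receptor, rose by 0.67 with its 3 combination libraries between 52.0 and 59.4 CPM. The member called lower was the Fc receptor FCGR1A (−0.53). CTSS, cathepsin S, lost its call without replicate 1 (0.13 with it, 0.06 without, adjusted p = 0.336, edgeR) and with the replicate block (0.11, adjusted p = 0.0785, edgeR). CD14, MRC1, CD163 and FCN1 had too few counts to be tested. In bulk RNA, more cells with a marker and more of its RNA per cell cannot be told apart.

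Of 10 tested granulocyte markers 2 were called higher, both at least 2-fold, and 4 lower (median −0.35). Without combination replicate 1 the median was −0.14, and 2 were called higher and 3 lower. That fit called 21.8% of all tested genes higher and 27.5% lower. Against the MI-503 mean the list median was −0.81 in replicate 1, −0.17 in replicate 2 and −0.06 in replicate 4. MPO, the myeloperoxidase of azurophilic granules, stood at 204, 213, 228 and 220 CPM with MI-503 and at 102, 131 and 156 CPM in the combination (log2 fold change −0.74 ± 0.11, adjusted p = 4.67e-05, edgeR). The granule protease CTSG and the granule protein BPI fell by 0.53 and 0.52, and in all 3 of these genes replicate 1 was the lowest library. BPI overlapped between the groups, with 43.8 CPM in combination replicate 4 against a lowest MI-503 value of 41.9 CPM, and was not called by DESeq2 (adjusted p = 0.0678). S100A9, part of the calcium-binding protein calprotectin, was called higher at 1.41 ± 0.31. Its levels of 4.42, 13.2 and 17.1 CPM overlapped the MI-503 range of 3.48 to 5.14 CPM through replicate 1. The elastase ELANE was called lower at −0.28 and lost its call without replicate 1 (−0.26, adjusted p = 0.055, edgeR) and with the replicate block (−0.26, adjusted p = 0.0604, edgeR).

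Of 12 tested myeloid transcription factors 5 were called higher and 5 lower. KLF2, a zinc finger factor of quiescent cells, rose from 5.83, 6.80, 7.10 and 6.75 CPM to 37.7, 60.0 and 58.2 CPM (log2 fold change 2.96 ± 0.14, adjusted p = 9.32e-11, edgeR). GFI1, a repressor in granulocyte precursors, and GATA2, a stem and progenitor factor, fell by 0.50 and 0.55, and RUNX1 fell by 0.21. The rise of ZEB2 (0.13) lost its call without combination replicate 1 (adjusted p = 0.0692, edgeR) and with the replicate block (adjusted p = 0.0761, edgeR).

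**Figure D3:**
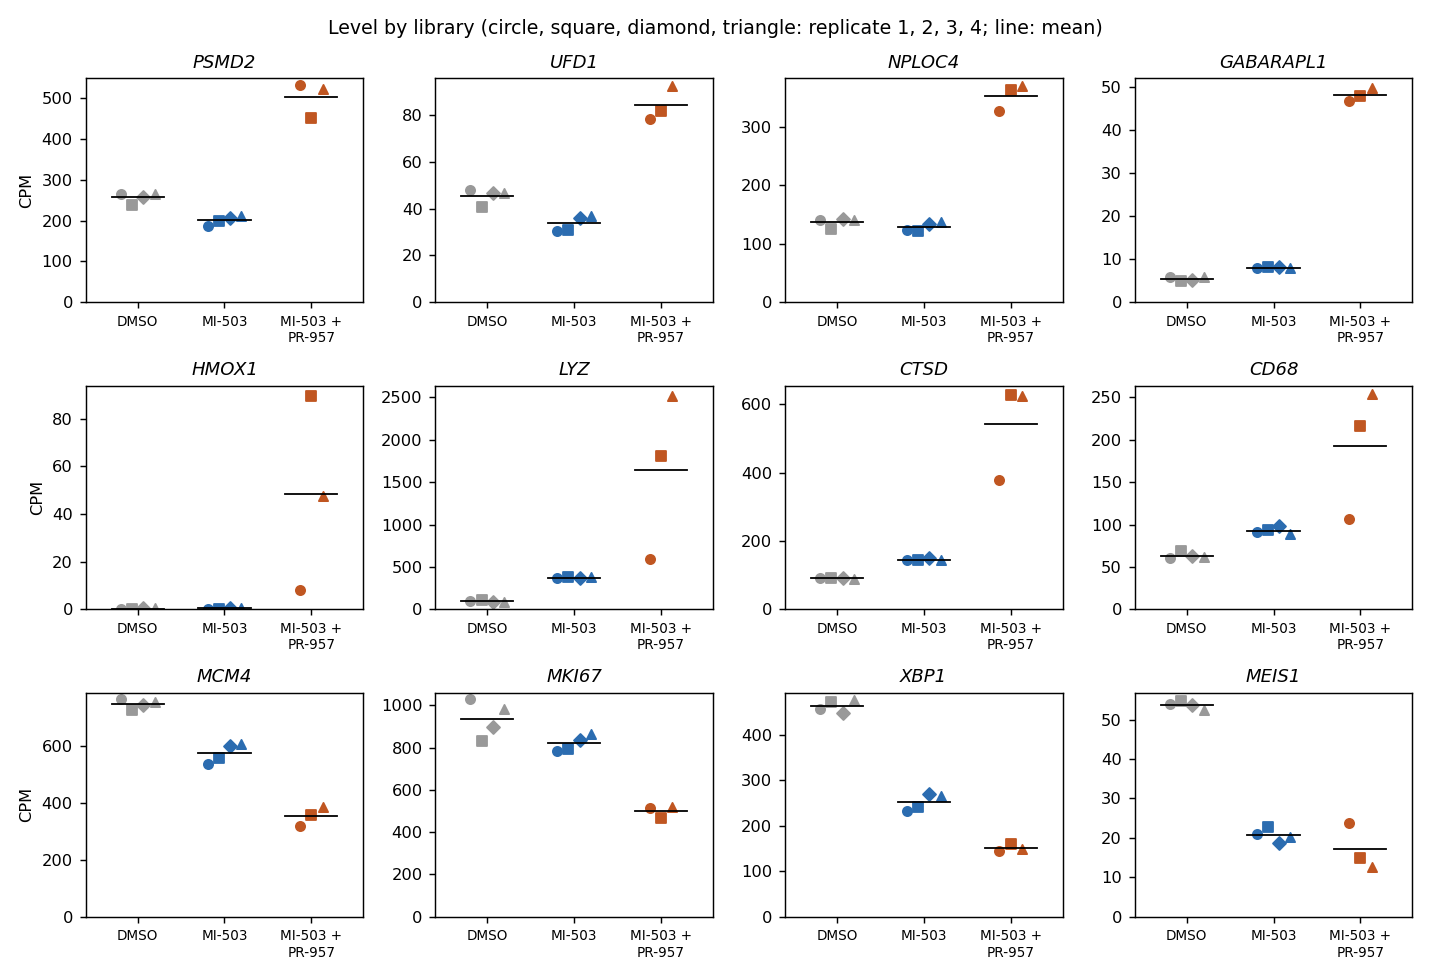
CPM (vertical axis, from 0) of 12 genes in each of the 11 libraries by treatment, with a line at each group's mean and a symbol per replicate number. PSMD2, UFD1, NPLOC4 and GABARAPL1 show 3 combination libraries close together, whereas HMOX1, LYZ, CTSD and CD68 show replicate 1 (circle) below the other two and MEIS1 shows it above them.

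Genes of proliferation fell together by moderate amounts. Of 22 DNA replication genes 20 were called lower and 0 higher (median log2 fold change −0.57), and all 19 tested mitosis genes were called lower (median −0.46), against 23.8% of all tested genes. Without combination replicate 1 the counts were the same, with medians of −0.50 and −0.58. MCM4, a subunit of the replicative helicase, stood at 537, 556, 598 and 607 CPM with MI-503 and at 317, 358 and 386 CPM in the combination (−0.70 ± 0.061, adjusted p = 1.07e-07, edgeR). MKI67, the Ki-67 marker of cycling cells, went from 783, 794, 837 and 862 CPM to 514, 468 and 520 CPM (−0.71 ± 0.067). CDK1, the kinase that drives entry into mitosis, fell by 0.60. The groups did not overlap for any of these 3 genes, and their DMSO means of 746, 934 and 139 CPM lay above the MI-503 means. The cyclin gene CCNE2 was called lower at −0.38 and was not called without replicate 1 (−0.26, adjusted p = 0.0526, edgeR).

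The size of the fall differed between the combination libraries. Against the MI-503 mean, the median difference of the DNA replication genes was −0.74 in replicate 1, −0.54 in replicate 2 and −0.41 in replicate 4. For the mitosis genes it was −0.30 in replicate 1, −0.62 in replicate 2 and −0.48 in replicate 4, so that replicate 1 was the lowest library for the first list and the highest of the combination for the second. Of 11 tested G1 cyclins, kinases and inhibitors 6 were called lower and 0 higher, and 8 were lower without combination replicate 1. CCND1, cyclin D1, fell from 14.4, 15.8, 14.3 and 14.4 CPM to 9.11, 8.33 and 6.33 CPM (−0.89 ± 0.11, adjusted p = 4.19e-06, edgeR), and CCND2 and RBL1, a relative of the retinoblastoma protein, fell by 0.57 and 0.58.

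Genes of ribosome and sterol production fell as well. Of 16 ribosome biogenesis genes 15 were called lower and 0 higher, with a median of only −0.28, and all 16 were lower without combination replicate 1 (median −0.30). NCL, nucleolin, stood at 1471, 1511, 1609 and 1575 CPM with MI-503 and at 1140, 1100 and 1108 CPM in the combination (−0.47 ± 0.047, adjusted p = 6.26e-07, edgeR). GNL3 and DKC1, a nucleolar GTPase and the pseudouridine synthase of box H/ACA particles, both fell by 0.49. Of 19 cholesterol synthesis and uptake genes 13 were called lower and 0 higher (median −0.35), and 16 were called lower without combination replicate 1 (median −0.42). SQLE, the squalene epoxidase, went from 118, 120, 113 and 113 CPM to 73.5, 74.9 and 62.5 CPM (−0.72 ± 0.060, adjusted p = 6.01e-08, edgeR). HMGCS1, which makes HMG-CoA, fell by 0.71.

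Of 15 tested p53 target genes 8 were called higher and 0 lower (median 0.23), and 9 were higher without combination replicate 1 (median 0.20). GADD45A, a stress-induced inhibitor of the cell cycle, rose from 11.6, 11.2, 11.5 and 11.5 CPM to 28.9, 25.9 and 26.6 CPM (1.25 ± 0.071, adjusted p = 5.40e-10, edgeR). CDKN1A (p21), MDM2, the p53 ligase, and BTG2, an antiproliferative factor, rose by 0.59, 0.46 and 0.82. The 14 BCL2 family genes gave 3 calls in each direction, and 3 higher and 2 lower without combination replicate 1. BCL2, the survival protein blocked by venetoclax, fell from 139, 135, 129 and 132 CPM to 87.5, 79.9 and 76.6 CPM (−0.72 ± 0.049, adjusted p = 5.40e-09, edgeR), and the death-promoting BIK fell by 0.79. MCL1, another survival protein, and BBC3 (PUMA), a death-promoting p53 target, rose by 0.16 and 0.31. The calls of BMF (0.24) and BCL2L11 (BIM, −0.20) were lost without combination replicate 1 (adjusted p = 0.509 and 0.0879, edgeR), and that of BMF also with the replicate block (adjusted p = 0.0515, edgeR).

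Interferon-stimulated genes did not move as 1 group. Of 15 tested members 6 were called higher and 2 lower (median 0.15), and 6 were higher and 3 lower without combination replicate 1. STAT2, a signal transducer of type I interferon, rose from 69.8, 72.3, 60.1 and 62.9 CPM to 116, 142 and 122 CPM (0.93 ± 0.073, adjusted p = 3.18e-08, edgeR). OAS1, which makes the signal for RNA decay, rose by 2.18 from 1.80, 1.77, 1.90 and 2.13 CPM to 5.41, 10.8 and 10.2 CPM. IFIT3 and IFIT2, which bind viral RNA, rose by 1.24 and 1.13 at levels under 4 CPM in every library, while the antiviral GTPase MX1 fell by 0.71. IRF9, the partner of STAT2, held 0 counts and is also annotated on a second contig. Of 11 tested NF-kB genes 3 were called higher and 2 lower (4 higher and 2 lower of 12 tested without combination replicate 1), among them ICAM1, an adhesion molecule, at 0.40 and the feedback inhibitor TNFAIP3 at −0.31.

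The KMT2A target genes are a set that the study itself had chosen, partly on these samples, and their direction here is not independent evidence. Of 22 members 9 were called lower and 1 higher, against 23.8% and 23.6% of all tested genes, and 12 were not called (median log2 fold change −0.25). Without combination replicate 1, 13 were called lower and 1 higher (median −0.41). Replicate 1 lay above the other combination libraries for this list, by a median of 0.34 on the log2 scale. MYC, the growth-promoting transcription factor, stood at 469, 488, 528 and 495 CPM with MI-503 and at 368, 361 and 387 CPM in the combination (−0.41 ± 0.046, adjusted p = 1.88e-06, edgeR). HOXA10 fell from 71.2, 71.4, 70.7 and 68.8 CPM to 57.0, 44.6 and 46.3 CPM (−0.51 ± 0.069, and −0.66 without replicate 1), and HOXA13 fell by 0.48. MEF2C, a myeloid factor, RUNX2, VENTX, a homeobox factor, the MEIS1 partner PBX3, the receptor kinase FLT3 and the G protein subunit GNAS completed the genes called lower. Without replicate 1 the log2 fold changes were −0.65 for MEF2C, −0.68 for RUNX2, −0.65 for HOXA13 and −0.38 for FLT3, against −0.47, −0.44, −0.48 and −0.25 with all libraries. PBX3 (−0.26) overlapped between the groups, and its adjusted p reached 0.0838 over the alternative fits.

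MEIS1, the cofactor of HOX proteins, had a DMSO mean of 53.7 CPM and stood at 21.1, 22.8, 18.7 and 20.3 CPM with MI-503 and at 23.7, 15 and 12.5 CPM in the combination. Replicate 1 was above every MI-503 library and the other two were below every one of them. The log2 fold change was −0.25 ± 0.14 with all libraries (adjusted p = 0.174, edgeR) and −0.63 without replicate 1 (adjusted p = 1.12e-06, edgeR). MEIS1 was also called lower after thinning to the smallest library and with no filter on low counts. The receptor kinase AXL showed the same arrangement, with 13.9, 6.37 and 5.10 CPM against 9.17 to 10.53 CPM. Its log2 fold change was −0.13 with all libraries (adjusted p = 0.661, edgeR) and −0.80 without replicate 1 (adjusted p = 6.55e-06, edgeR). HOXA3 (−0.27 and −0.72) and HOXA11 (−0.12 and −0.33) were likewise not called with all libraries and were called lower without replicate 1.

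HOXA9, the best known target of KMT2A fusions, stood at 22.1, 18.6 and 20.9 CPM in the combination against 20.3, 18.5, 19.1 and 18.9 CPM (0.10 ± 0.076, adjusted p = 0.281, edgeR), and 72.4% of its annotated exon bases are shared with other genes. HOXA2, HOXA4, HOXA5, HOXA6, HOXA7, CDK6 and CDK9 were not called either, with log2 fold changes between −0.36 and 0.31. HOXA5 and HOXA6 were called higher when combination replicate 4 was left out. Without combination replicate 1, HOXA2 and HOXA4 stood at −0.61 and −0.63 and were not called (adjusted p = 0.113 and 0.0629, edgeR). Over the alternative fits the adjusted p of HOXA4 fell to 0.0441 (edgeR, limma or DESeq2). All these differences are set against MI-503 and not against DMSO.

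**Figure D4:**
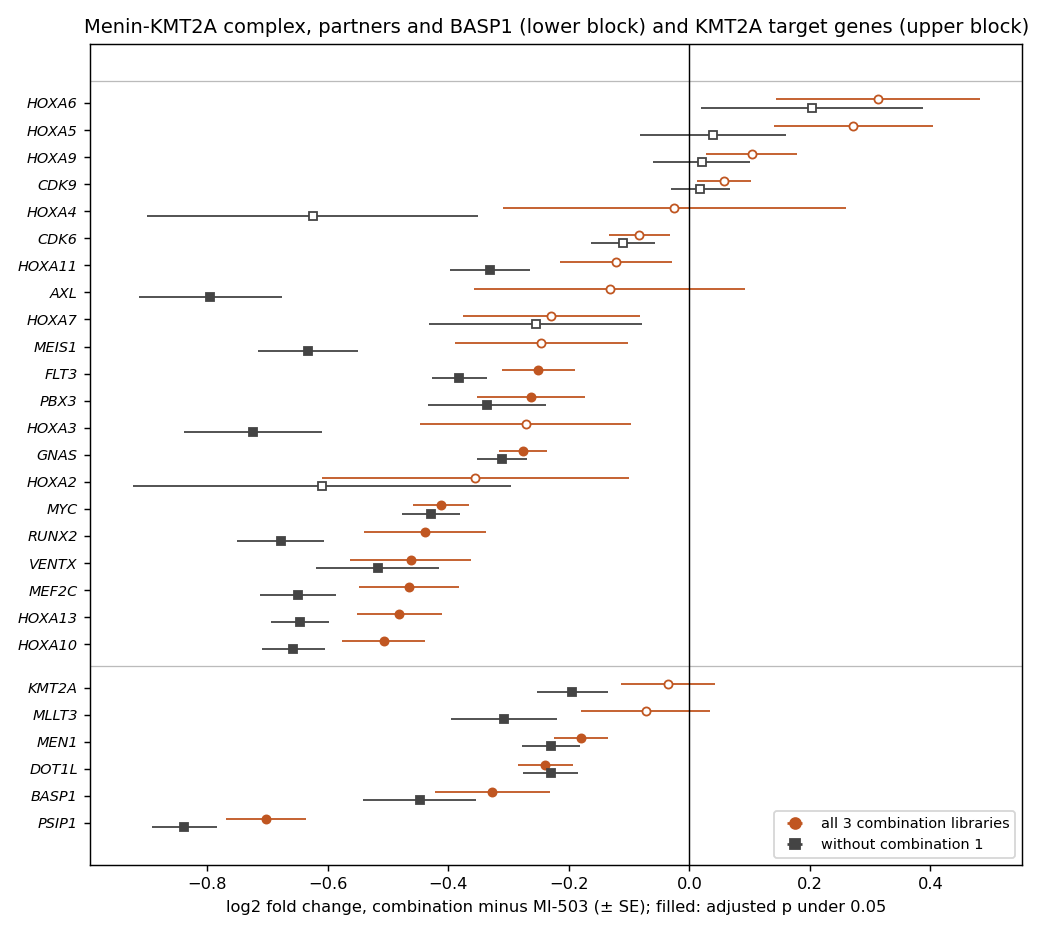
Log2 fold change of the combination against MI-503 with its SE (horizontal axis) for genes of the Menin-KMT2A complex, its partners and BASP1 (lower block) and KMT2A target genes (upper block) reported here, with all 3 combination libraries (circles) and without replicate 1 (squares), filled where the adjusted p was under 0.05. Without replicate 1 the values of MEIS1, AXL and HOXA3 move from −0.25, −0.13 and −0.27 to −0.63, −0.80 and −0.72.

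Among 6 genes, those of the Menin-KMT2A complex and its known partners together with BASP1, 4 were called lower and 0 higher, and all 6 were lower without combination replicate 1. PSIP1 (LEDGF), which tethers the Menin complex to chromatin, stood at 86.7, 88.3, 95.2 and 92.6 CPM with MI-503 and at 63.1, 50.9 and 52.4 CPM in the combination (−0.70 ± 0.066, adjusted p = 2.81e-07, edgeR), although 28.6% of its exon bases are shared with another gene. BASP1, a transcriptional corepressor that the study follows, stood at 18.2, 18.1, 19.2 and 19.6 CPM against 16.6, 13.2 and 14.7 CPM. The groups did not overlap (−0.33 ± 0.096, adjusted p = 0.00957, edgeR), and both were above the DMSO mean of 4.503 CPM. DOT1L, the H3K79 methyltransferase, and MEN1, the gene of Menin, fell by 0.24 and 0.18. KMT2A and MLLT3, a frequent fusion partner, were not called with all libraries (−0.04 and −0.07). Both were called lower without replicate 1 (−0.19 and −0.31, adjusted p = 0.00885 and 0.00532, edgeR). Counts per gene do not separate the KMT2A fusion transcript of this line from that of the normal gene.

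Metallothioneins, small proteins that bind zinc and copper, fell. All 5 tested metallothionein genes were called lower, with log2 fold changes between −1.42 and −0.34, and the zinc exporter SLC30A1 was the 1 member of the 6 tested that was called higher. MT1G went from 6.16, 7.498, 6.03 and 6.10 CPM to 2.31, 2.56 and 2.46 CPM (−1.42 ± 0.12, adjusted p = 1.16e-07, edgeR). MT1E, MT2A, MT1F and MT1X fell by 0.98, 0.88, 0.40 and 0.34. The call of MT1F was lost without combination replicate 1 in the fit with the replicate block (adjusted p = 0.0515, edgeR). SLC30A1 rose from 49.2, 54.4, 53.3 and 52.0 CPM to 72.0, 75.6 and 73.0 CPM (0.49 ± 0.049, adjusted p = 5.00e-07, edgeR). The metallothionein genes are near-identical neighbours on chromosome 16, so that the share of each single gene is uncertain.

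**Figure D5:**
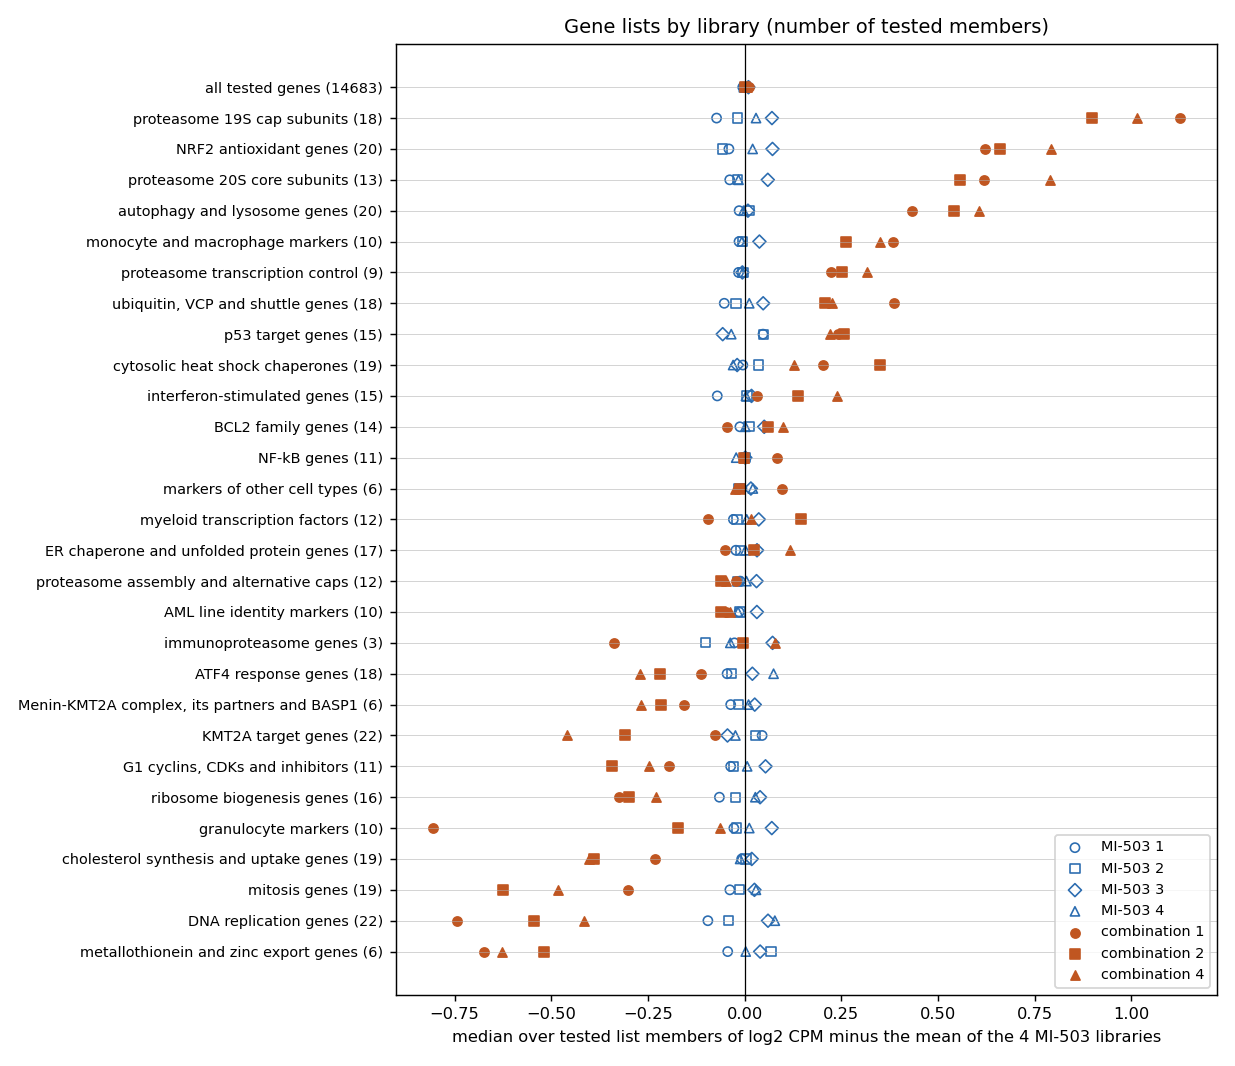
Median over the tested members of each gene list of log2 CPM minus the mean of the 4 MI-503 libraries (horizontal axis), 1 symbol per library, MI-503 libraries open and blue, combination libraries filled and orange. The cap of the proteasome lies farthest right, followed by the antioxidant genes and the core, the metallothionein, DNA replication and mitosis lists lie farthest left, and replicate 1 of the combination (circle) departs to −0.81 for the granulocyte markers.

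The largest changes were ranked among called genes that averaged 5 CPM or more over the 7 libraries. These genes also had no overlap between the groups and the same call without combination replicate 1. The largest rises after that of HMOX1 were those of SLC26A11, CEP170B, FAM219A, KLF2 and NOL3. The mean spans both groups, so a gene can pass it through the group where it is higher. HMOX1, SLC26A11 and CEP170B were among those that did, with MI-503 means of 0.525, 0.361 and 1.21 CPM. FAM219A, a gene of unknown function, stood at 6.67, 6.51, 7.47 and 7.29 CPM with MI-503 and at 84.0, 78.4 and 84.9 CPM in the combination. Its log2 fold change of 3.57 ± 0.074 had the smallest adjusted p among the named genes (3.53e-15, edgeR). CEP170B, a relative of a centrosomal protein, went from 1.11, 1.28, 1.28 and 1.19 CPM to 36.1, 21.6 and 19.7 CPM (4.41 ± 0.20), and in this gene replicate 1 was the highest library. NOL3, an inhibitor of cell death also called ARC, rose by 2.80 to between 30.7 and 35.0 CPM. NLRP12, a regulator of inflammatory signaling in myeloid cells, ARRDC4, an arrestin-like regulator of glucose uptake, and APOL1, a trypanosome-lytic lipoprotein component, rose by 2.20, 2.20 and 2.15, each with its 3 combination libraries close together.

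SLC26A11, an anion transporter, stood at 0.555, 0.436, 0.165 and 0.287 CPM with MI-503 and at 1.70, 22.2 and 12.1 CPM in the combination (4.97 ± 0.70, adjusted p = 1.94e-05, edgeR). Its neighbour SGSH, a lysosomal sulfatase, stood at 1.37, 11.9 and 7.999 CPM against 0.174 to 0.417 CPM (4.79 ± 0.62). The annotation places SGSH at chr17:80200668-80220333 on the minus strand and SLC26A11 at chr17:80220287-80253502 on the plus strand (hg38), so their ends overlap, and since no source used here says whether the counting was stranded, reads of the overlap cannot be assigned to either. Both short RNAs among the largest rises, the small nucleolar RNA SNORD3A (2.75) and the 7SK RNA RN7SK (2.38), were lowest in replicate 1 of the combination. SNORD3A stood at 1.96, 18.3 and 12.3 CPM and RN7SK at 21.6, 84.4 and 60.9 CPM, against 1.45 to 1.71 and 8.22 to 12.2 CPM with MI-503.

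The largest fall by the same rule was that of the long non-coding RNA LINC00639, from 18.5, 17.6, 22.5 and 21.7 CPM to 3.52, 4.51 and 3.12 CPM (−2.45 ± 0.14, adjusted p = 6.63e-10, edgeR). NOG (noggin), which binds and blocks BMP ligands, fell from 8.42, 9.97, 12.7 and 11.1 CPM to 4.20, 2.91 and 1.26 CPM (−1.85 ± 0.24). TERT, the catalytic subunit of telomerase, fell from 22.4, 24.9, 16.9 and 19.8 CPM to 6.85, 9.13 and 6.03 CPM (−1.55 ± 0.18, adjusted p = 3.57e-06, edgeR). For LINC00639, NOG and TERT no combination library reached the lowest MI-503 library, which the rule itself required. MFAP4, a matrix glycoprotein, stood at 120, 125, 124 and 124 CPM against 38.9, 54.5 and 40.9 CPM (−1.48 ± 0.085). GGT5, an enzyme that cleaves glutathione conjugates, DDN, a cytoskeletal protein, and GPR84, a receptor for medium-chain fatty acids, fell by 1.75, 1.55 and 1.44. FNDC10, VAT1L, PRR5L, LOC339862 and NPTX2 completed the 12 largest falls, between −1.33 and −1.25.

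Combination replicate 1 departed from replicates 2 and 4 in particular genes. The lowest relative to the mean log2 CPM of the other two were SLC26A11 (−3.25), HMOX1 (−3.02), SNORD3A (−2.93), GPNMB (−2.83) and SGSH (−2.82). GPNMB, a glycoprotein of lysosome-rich macrophages, stood at 1.39, 11.2 and 8.93 CPM against 0.454 to 0.942 CPM with MI-503. Among the highest were the cytokine receptor IL21R, AXL, SKIDA1 and the HSP70 pseudogene HSPA7. IL21R stood at 9.04, 4.06 and 3.35 CPM against 8.01 to 8.61 CPM, so that replicate 1 lay above every MI-503 library and the others below. Its log2 fold change was −0.54 with all libraries (adjusted p = 0.0576, edgeR), −1.22 without replicate 1 and −0.66 with the replicate block (adjusted p = 0.0185, edgeR). SKIDA1 gave −0.34 with all libraries (adjusted p = 0.128, edgeR), −0.87 without replicate 1 and −0.42 with the replicate block (adjusted p = 0.0395, edgeR).

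For genes called at least 2-fold without replicate 1, that library's own difference from MI-503 was computed, with the MI-503 libraries shared between the values. The genes were picked by replicates 2 and 4, which by itself favours larger differences there. The gap to replicate 1 therefore does not measure a weaker response in that library. For 457 genes called higher the median log2 difference was 1.40 for the mean of replicates 2 and 4 and 1.15 for replicate 1. For 343 genes called lower it was −1.27 and −0.73. The share of counts from mitochondrial genes was 5.77% in replicate 1, 4.88% and 5.01% in replicates 2 and 4, and 6.01% to 6.15% with MI-503, and its part in these differences, like that of depth, was not tested.

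The identity markers of the line were present in all libraries, among them PTPRC (CD45), CD33, SPI1 and MPO, and 3 of the 10 were called higher and 2 lower (3 and 4 without combination replicate 1). The 3 were SPI1 (PU.1), CEBPA and the kinase LYN, at 0.17, 0.22 and 0.16, and the 2 were MPO and FLT3. Over the alternative fits the adjusted p of SPI1, CEBPA and LYN reached 0.572, 0.252 and 0.237 (edgeR, limma or DESeq2). Of 17 markers of other cell types, 11 had too few counts to be tested, among them the T cell markers CD3D and CD3E, the B cell marker MS4A1, the erythroid marker HBB, the endothelial marker CDH5 and the epithelial markers EPCAM and KRT19, each with at most 6 counts over the 11 libraries. NCAM1 (CD56), PAX5 and PECAM1 were counted in every library of this line and moved by −0.63, −0.36 and 0.56. The fibroblast marker COL1A1 stood under 1 CPM in every library and lost its call without combination replicate 1 (1.13 with it, 0.88 without, adjusted p = 0.0759, edgeR).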

How the data were processed

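RNA of 11 MOLM-13 libraries, 4 with DMSO, 4 with MI-503 and 3 with the combination, was sequenced in pairs of reads. The authors trimmed, aligned and counted the reads per gene on hg38, and the deposited values are raw counts. The submitters' processing notes name Trimmomatic 0.39, STAR 2.7.10a, featureCounts 2.0.1 and DESeq2. No source used here gives the strand setting. Deposited tables of the authors' own fold changes and p-values against DMSO were not used. Of 38557 annotated genes 11740 had no count, some of them genes that are also annotated on alternative contigs. CCNE2, STUB1, ATF4, HSPE1, PSMB7, PDIA6 and HOXA10 share between 29.9% and 62.3% of their exon bases with other genes, and their counts are uncertain to that extent.

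From the counts, edgeR 4.0.16 in R 4.3.3 was run with TMM scaling, filterByExpr (minimum count 10) and the quasi-likelihood test over all 11 libraries, with p-values adjusted by Benjamini-Hochberg over 14683 genes (biological coefficient of variation 6.145%, 8 residual degrees of freedom). CPM values were TMM-scaled. No list was tested as a set, and list counts stand beside the share of all genes called. The procedure was run on simulated counts with known changes in a small part of the genes and no library that stood apart. In these data many genes were called and combination replicate 1 stood apart, so that run does not give their error rates. Counting error is small at this depth for genes with many counts, where the spread between libraries sets the precision. It is larger for genes with few counts. Among these were HMOX1, SLC26A11 and SGSH, with MI-503 means of 0.525, 0.361 and 0.25 CPM. The members and gene lists were chosen with earlier results of these data known.

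Genes named in the text were the 12 largest rises and 12 largest falls among called genes that averaged 5 CPM or more over the 7 libraries, with no overlap between groups and the same call without combination replicate 1, the 4 members of each list with the smallest adjusted p, every immunoproteasome, KMT2A target, metallothionein and Menin-KMT2A partner gene with PSMB5, PSMB6 and PSMB7, the 5 genes highest and the 5 lowest in combination replicate 1, and list members whose call ended without it. Some genes that this rule names are not reported here. ATF4, DDI2, FCGR1A, FTL, HSPD1, HSPE1, MX1, PSMA3, PSMD3, SEM1, SLC7A11, SPI1, STUB1, TXN, UBQLN4, UCHL5, UFD1, ZFAND2A and the untested list members were named after their values were seen. Replicate numbers come from the labels, which do not say what they share. The deviations of same-numbered MI-503 and combination libraries from their group means correlated at 0.141, 0.149 and 0.211 for numbers 1, 2 and 4, so a fit with the replicate number as a block was also made, although combination replicate 4 correlated more with MI-503 replicate 3 (0.269). Other alternatives were RLE and upper-quartile scaling, no filter and a minimum count of 50, thinning to the smallest library, the 7 libraries alone, limma-voom (limma 3.58.1), DESeq2 1.42.0, an adjusted p under 0.01, and leaving out each library.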

Additional observations from a re-analysis of the deposited data

Results flagged for a closer look

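Single MI-503 libraries stood apart from the other 3 by Dixon's test at its 95% level in 9 of 171 named genes, and chance gives about 1 in 20. The 3 combination libraries are too few for this test. MI-503 replicate 3 stood apart in 4 genes. It held 0.8258 CPM of the heme oxygenase HMOX1 against 0.4069 to 0.4503 in the others, 150.9 CPM of the lysosomal protease CTSD against 143.7 to 144.8, 1.115 CPM of the proteasome activator subunit PSME2 against 0.8332 to 0.8597, and 89.02 CPM of the p53 ligase MDM2 against 98.93 to 99.89. MI-503 replicate 1 stood apart in 3 genes, with 0.4166 CPM of the lysosomal sulfatase SGSH against 0.1744 to 0.2064, 48.46 CPM of the myeloid factor MEF2C against 52.64 to 53.51, and 120.3 CPM of the matrix protein MFAP4 against 124.1 to 124.7. MI-503 replicate 2 held 15.75 CPM of cyclin D1 (CCND1) against 14.29 to 14.45 and 7.498 CPM of the metallothionein MT1G against 6.028 to 6.156. In 8 of these 9 genes every combination library lay outside the whole MI-503 range, and PSME2 was the exception. Many named genes were picked for no overlap or for a small adjusted p, which favours such a count. Of all tested genes 47.6% had no overlap. The count therefore does not show that the libraries standing apart were without effect.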

How the results depend on the processing

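Over 23 alternative settings the counts ranged from 2511 to 3647 genes higher and from 2597 to 4059 lower, within 1.5 times the reported counts. The number of genes at least 2-fold lower in the combination than in MI-503, and of those at least 2-fold higher, moved with the filter on low counts. With no filter 719 genes were at least 2-fold higher, and with a minimum count of 50 there were 248 higher and 87 lower; the number of low genes tested differs between these settings by construction. Leaving out 1 library at a time gave 2578 to 3485 genes higher, 3145 to 4059 lower, 394 to 495 at least 2-fold higher and 195 to 350 at least 2-fold lower. The upper ends of the lower counts, 4059 and 350, were those without combination replicate 1. Without that library, 2-fold lower counts were 349 with the replicate block and 326 with upper-quartile factors, both settings chosen after the data were seen; the cause was not tested. The replicate block changed the call of 6 named genes. BMF, CTSS, ELANE and ZEB2 lost it (adjusted p = 0.0515, 0.0785, 0.0604 and 0.0761, edgeR), IL21R and SKIDA1 gained it (adjusted p = 0.0185 and 0.0395, edgeR), and no other named gene changed. Of 171 named genes 142 kept their direction and their side of the threshold in every setting run. Without combination replicate 1, 11 named genes lost a call, 8 gained one and 0 reversed. List counts stayed within 1.5 times in 1236 comparisons of a list with a setting and moved further in 40.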
